A study of Mus musculus with 11 samples.

Results

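The genes of heme synthesis were examined as 9 rows of the count tables, picked by their Ensembl identifiers: *Alas1*, *Alas2*, *Alad*, *Uros*, *Urod*, *Cpox*, *Ppox* and *Fech*, which encode 8 enzymes of the pathway, and *Hmox1*, which encodes a heme-degrading enzyme. They were 9 of 52636 genes in the tables, and all 9 were among the 17243 genes that passed the filter on low counts. The list does not hold every step of the pathway. RNA sequencing had been done on whole livers of untreated mouse embryos at E15.5 (embryonic day), in 3 WT, 2 *Tnfr1*-/-, 3 *Casp8*-/- *Mlkl*-/- and 3 *Casp8*-/- *Tnfr1*-/- livers. Caspase-8 restrains necroptosis, a lytic form of cell death, and MLKL is the protein that carries it out. TNFR1 is a receptor for the cytokine TNF. All mutant alleles were germline and on a C57BL/6N background, so every cell of the embryo carried them. Both double mutants lacked caspase-8, but MLKL was missing only in the first and TNFR1 only in the second, and the *Mlkl* allele lacks exon 3 alone. No *Casp8*-/- genotype without a second mutation was among these livers, so an effect of *Casp8* loss by itself cannot be told apart from that of the combination.

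Heme is an iron-containing ring that lets hemoglobin carry oxygen. Its synthesis starts in mitochondria, where an ALA synthase joins glycine to succinyl-CoA, continues with several steps in the cytosol and ends in mitochondria with the insertion of iron. *Alas1* encodes the ALA synthase found in all tissues and *Alas2* the erythroid form. The fetal liver is at this age the main site of red cell production, so most of its heme synthesis is erythroid, while hepatocytes also need heme for their cytochromes. In RNA of a whole liver, fewer cells of a type and less RNA per cell cannot be told apart.

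Library totals lay between 23129212 and 35819339 counts. Markers of fetal liver were present: summed over each list, 17 erythroid markers measured 14311 to 22503 CPM (counts scaled to library size) and 17 hepatocyte markers 58807 to 256309 CPM across the 11 livers. The targeted genes gave a partial check of the genotypes. *Casp8* measured 27.7 to 33.9 CPM in the 5 livers with intact *Casp8* and 7.82 to 21.9 CPM in the 6 *Casp8*-/- livers, and *Mlkl* 0.730 to 1.22 CPM in *Casp8*-/- *Mlkl*-/- livers and 3.68 to 24.6 CPM in the others. The 21.9 CPM of *Casp8* was that of *Casp8*-/- *Tnfr1*-/- replicate 3, and the other *Casp8*-/- livers had at most 13.1 CPM. *Tnfrsf1a*, the gene of TNFR1, measured 49.8 and 50.5 CPM in *Tnfr1*-/- livers against 47.1 to 53.4 in WT livers, and 76.9, 76.0 and 425 CPM in *Casp8*-/- *Tnfr1*-/- livers. The latter were above WT livers, replicate 3 by the most, although they are labelled as lacking TNFR1, so counts summed over the gene leave the loss of TNFR1 unchecked in both genotypes. One library stood apart and bears on nearly every result given here. *Casp8*-/- *Tnfr1*-/- replicate 3 correlated with the other livers at r = 0.840 to 0.891 across genes, against at least 0.949 among the other 10 (Pearson, log2 CPM, where genes are not independent replicates). It alone expressed *Xist*, the RNA of the inactive X chromosome, at 3409 CPM against at most 0.570 CPM, it had 534 CPM of the skeletal muscle actin gene *Acta1* against at most 6.07, and hemoglobin genes took 13.0% of its counts against 3.70 to 6.17%. Therefore, the main results are given with and without it.

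The livers made far more *Alas2* than *Alas1* RNA per unit of length. Levels of different genes were compared as CPM per kb of the exon length in the tables. In WT livers *Alas2* stood highest at 1047 ± 30.2 CPM per kb (mean ± SD, n = 3), followed by *Alad* at 543 ± 28.0, *Fech* at 518 ± 14.7, *Cpox* at 497 ± 33.8 and *Urod* at 466 ± 12.9 CPM per kb. Of these neighbours in the order, the WT livers of *Fech* and *Cpox* and those of *Cpox* and *Urod* overlapped, as did those of *Alad* and *Fech*. *Ppox* at 225 ± 14.6 CPM per kb and *Hmox1* at 188 ± 26.9 CPM per kb also overlapped. *Uros* followed at 98.9 ± 1.80 and *Alas1* was lowest at 11.8 ± 1.05 CPM per kb. Compared within each WT liver, *Cpox* was above *Urod* and *Ppox* above *Hmox1* in all 3. The order of *Alad* and *Fech* and that of *Fech* and *Cpox* differed between these livers. The plot of levels per length shows all 11 livers.

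**Figure D1:**
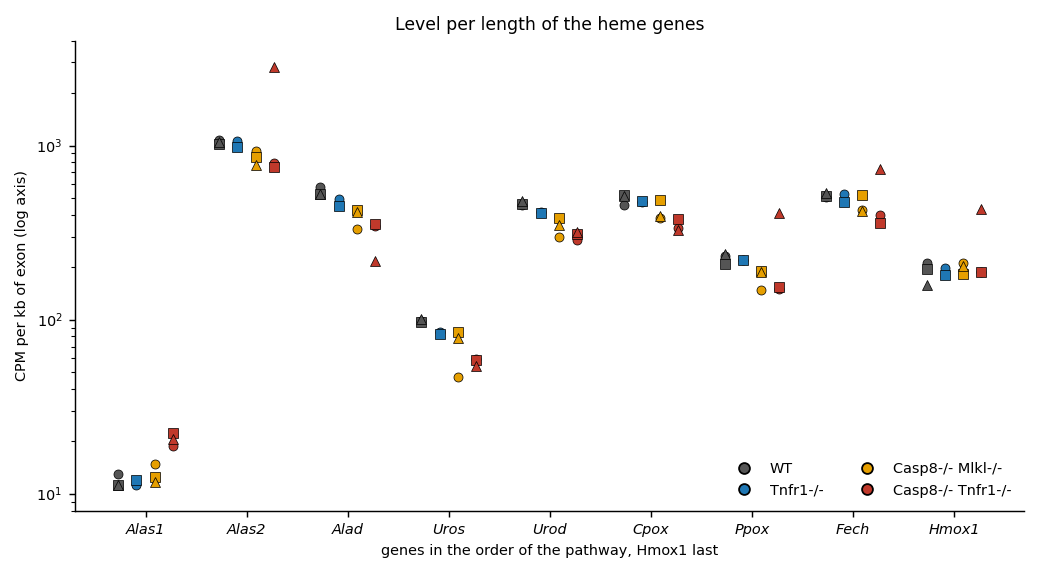
Level of each of the 9 genes in CPM per kb of exon (log axis), with a point per liver, the genotype by colour, and circles, squares and triangles for replicates 1, 2 and 3. *Alas1* lies between 11.1 and 22.3 and *Alas2* between 755 and 2813 in every liver.

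The 9 genes lie on different chromosomes, except *Alad* and *Urod*, which are both on chromosome 4. In GRCm38 with the GENCODE M21 annotation, all 9 are protein-coding genes, at 9:106233455-106248654 (*Alas1*, minus strand), X:150547375-150570638 (*Alas2*, plus), 4:62509169-62519918 (*Alad*, minus), 7:133686243-133710072 (*Uros*, minus), 4:116989965-116994413 (*Urod*, minus), 16:58670292-58717636 (*Cpox*, plus), 1:171275990-171281186 (*Ppox*, minus), 18:64452914-64490251 (*Fech*, minus) and 8:75093621-75100589 (*Hmox1*, plus). Reads were counted over exons. The methods of the study name a stranded kit and the labels another one, and whether the counting used strand was not given in the sources used here, so 4 of the genes are uncertain where they overlap an exon of a gene on the other strand. *Ppox* shares 17.5% of its exon bases with *B4galt3*, *Alas2* shares 12.9% with *Apex2*, *Alas1* shares 7.53% with *4930500F10Rik* and *Cpox* shares 3.06% with *Gpr15*. *Apex2* measured 23.5 to 30.0 CPM, far below *Alas2*, and *4930500F10Rik* at most 0.122 CPM and *Gpr15* at most 0.912 CPM. *B4galt3* measured 28.6 to 38.0 CPM in 10 livers and 98.3 CPM in *Casp8*-/- *Tnfr1*-/- replicate 3, the liver in which *Ppox* was also highest, and the part of these reads in the *Ppox* count was not tested. Of the 50-base stretches in their transcripts, *Fech* shared 3.02% and *Urod* 2.09% with genes elsewhere in the genome, and *Alad*, *Uros* and *Hmox1* shared 0%.

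*Alas1* RNA was more abundant in *Casp8*-/- *Tnfr1*-/- livers than in each of the other genotypes, and it was the only one of the 9 genes with that pattern. The 3 WT livers measured 51.3, 44.1 and 44.1 CPM, the *Tnfr1*-/- livers 44.3 and 47.2 CPM, and the *Casp8*-/- *Mlkl*-/- livers 58.4, 49.5 and 46.1 CPM. The 3 *Casp8*-/- *Tnfr1*-/- livers measured 74.9, 88.4 and 82.1 CPM. All 3 lay above all 8 livers of the other genotypes, and the liver that stood apart in other respects lay between the other two. Against WT the log2 fold change was 0.81 (SE 0.136, 95% interval 0.51 to 1.12), a 1.76-fold difference (edgeR quasi-likelihood test, adjusted p = 0.00853). It was 0.84 against *Tnfr1*-/- livers (SE 0.155, edgeR adjusted p = 0.0238) and 0.67 against *Casp8*-/- *Mlkl*-/- livers (SE 0.136, edgeR adjusted p = 0.0430). These 3 comparisons share the same *Casp8*-/- *Tnfr1*-/- livers. Without *Casp8*-/- *Tnfr1*-/- replicate 3 the values were 0.82, 0.84 and 0.67, all still past the threshold of 0.05. Against WT the call was lost when WT replicate 2 or WT replicate 3 was left out, with edgeR adjusted p up to 0.0571 and log2 fold changes between 0.77 and 0.90 over all 11 fits that left out 1 liver. Against *Tnfr1*-/- livers it was kept in 7 of 11 such fits and lost without WT replicate 2, *Casp8*-/- *Tnfr1*-/- replicate 2 or either *Tnfr1*-/- liver (edgeR adjusted p up to 0.403). Against *Casp8*-/- *Mlkl*-/- livers it was kept in 3 of 11, namely without *Casp8*-/- *Mlkl*-/- replicate 1 or *Casp8*-/- *Tnfr1*-/- replicate 1 or 3, with edgeR adjusted p up to 0.186 in the others. The log2 fold change was at least 0.62 in all of these fits.

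*Alas2* was not shown to differ between the genotypes, and its level in 1 liver decided the direction of the fold change. WT livers measured 2198, 2075 and 2128 CPM, *Tnfr1*-/- livers 2158 and 2001 CPM, and *Casp8*-/- *Mlkl*-/- livers 1895, 1743 and 1570 CPM. In *Casp8*-/- *Tnfr1*-/- livers it measured 1620, 1539 and 5730 CPM. Replicates 1 and 2 were thus below all WT and *Tnfr1*-/- livers, whereas replicate 3 had 2.61 times the level of the highest other liver. The log2 fold change against WT was 0.47 (SE 0.441, 95% interval -0.51 to 1.46, edgeR adjusted p = 0.509), and it was -0.43 (edgeR adjusted p = 0.0612) without that liver. *Alas2* is on the X chromosome and replicate 3 is the liver with *Xist*; the part of either in this level was not tested. The ratio of *Alas2* to *Alas1* per kb was 82.4 to 94.8 in WT and *Tnfr1*-/- livers and 63.1 to 68.4 in *Casp8*-/- *Mlkl*-/- livers. In *Casp8*-/- *Tnfr1*-/- livers it was 42.0 and 33.8 in replicates 1 and 2 and 136 in replicate 3, so this genotype held both the lowest ratios and the highest.

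**Figure D2:**
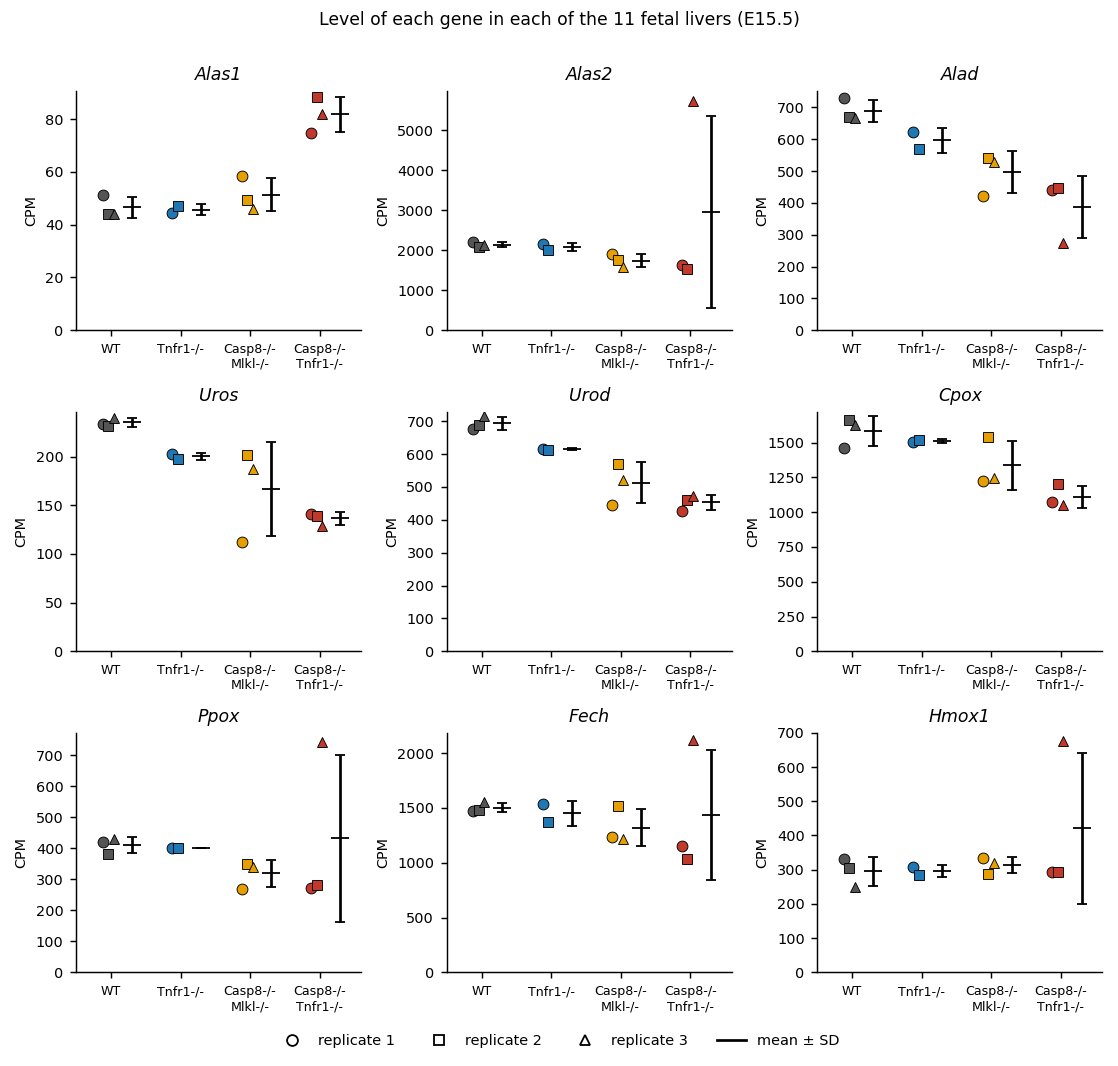
CPM of each of the 9 genes in each liver, with axes from 0; points are livers, with circles, squares and triangles for replicates 1, 2 and 3, and the black marks give mean ± SD of each genotype (n = 2 for *Tnfr1*-/-, n = 3 for the others). *Alas1* is raised in all 3 *Casp8*-/- *Tnfr1*-/- livers (74.9 to 88.4 CPM), while the wide SDs of *Alas2*, *Ppox*, *Fech* and *Hmox1* in this genotype come with the single high point of replicate 3.

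Promoter sequences are shown for *Alas2*, for its GATA match, and for *Alad* and *Urod*, as 2 genes that were lower together in *Casp8*-/- *Tnfr1*-/- livers. RefSeq promoters (GRCm38.p6) were at hand for 7 of the 9 genes, with 10 entries in all, since *Alas1*, *Alad* and *Uros* have more than 1. In each, the 250 bases before the start were searched on both strands for the erythroid GATA motif in the form AGATAA, the KLF1 motif CCNCNCCC, the AP-1 and NF-E2 core TGANTCA and the antioxidant response core TGACNNNGC. Other forms of the GATA motif were not searched. For the *Cpox* entry and 1 entry each of *Alad* and *Uros*, the first bases after the start were in no GENCODE transcript of that gene. This *Uros* entry is the one with the CCNCNCCC match given below. CCNCNCCC matches can overlap each other, and the last 2 motifs can share bases. The sequences run 5′ to 3′ on the gene's strand, matches to any of the 4 motifs are in capitals, and bases that an annotated exon covers are left out.
Alas2 (X:150547167-150547374, plus strand): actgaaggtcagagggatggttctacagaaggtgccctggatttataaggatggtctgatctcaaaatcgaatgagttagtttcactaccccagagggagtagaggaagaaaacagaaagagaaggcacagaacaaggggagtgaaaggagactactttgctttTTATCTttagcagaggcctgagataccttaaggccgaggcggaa
Alad (4:62519919-62520159, minus strand): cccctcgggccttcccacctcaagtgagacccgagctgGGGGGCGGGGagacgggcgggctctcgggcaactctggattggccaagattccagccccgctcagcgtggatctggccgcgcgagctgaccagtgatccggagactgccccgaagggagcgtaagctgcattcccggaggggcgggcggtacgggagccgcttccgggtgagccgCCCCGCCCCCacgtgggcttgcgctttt
Urod (4:116994414-116994663, minus strand): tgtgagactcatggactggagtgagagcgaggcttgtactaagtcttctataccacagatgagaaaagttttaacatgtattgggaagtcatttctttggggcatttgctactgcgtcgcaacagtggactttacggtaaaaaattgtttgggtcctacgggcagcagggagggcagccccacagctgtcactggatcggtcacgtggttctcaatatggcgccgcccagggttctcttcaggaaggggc
AGATAA was found in the *Alas2* promoter only, on the minus strand at bases 86 to 81 before the start, and 9.99% of all 32851 promoters of this length hold it. CCNCNCCC was found in 6 of the 10 promoters, those of *Alas2*, *Alas1*, *Alad* and 1 of the *Uros* promoters, against 45.9% of all promoters. Its matches in *Alas2* lie nearer the start, in bases that an annotated exon covers. The 2 *Alad* windows overlap and share matches, and the 2 *Alas1* windows overlap too, so the 10 are not separate windows. The *Urod* promoter, like those of *Cpox* and *Ppox*, held none of the 4 motifs in the letters searched. TGANTCA and TGACNNNGC were found in 0 of the 10 promoters and in 6.75% and 10.2% of all. A match is a description of the letters and not a site, and its absence says only that these letters are not in this window.

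*Alad*, *Uros* and *Urod*, which encode enzymes of the cytosolic middle steps, were all lower in *Casp8*-/- *Tnfr1*-/- livers than in WT livers. *Alad* encodes the enzyme that joins pairs of ALA molecules into porphobilinogen. It measured 731, 671 and 667 CPM in WT livers, 623 and 569 CPM in *Tnfr1*-/- livers and 422, 540 and 530 CPM in *Casp8*-/- *Mlkl*-/- livers. In *Casp8*-/- *Tnfr1*-/- livers it measured 441, 448 and 275 CPM. All *Casp8*-/- *Tnfr1*-/- livers lay below all WT and *Tnfr1*-/- livers, and they overlapped those of *Casp8*-/- *Mlkl*-/-. The log2 fold change against WT was -0.83 (SE 0.204, edgeR adjusted p = 0.0435) and -0.63 without replicate 3 (edgeR adjusted p = 0.0148).

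*Uros* encodes uroporphyrinogen III synthase, which closes the ring in the form that leads to heme. WT livers measured 234, 232 and 240 CPM, *Tnfr1*-/- livers 203 and 198 CPM, *Casp8*-/- *Mlkl*-/- livers 112, 201 and 187 CPM, and *Casp8*-/- *Tnfr1*-/- livers 142, 139 and 129 CPM. Again every *Casp8*-/- *Tnfr1*-/- liver was below every WT and *Tnfr1*-/- liver, but *Casp8*-/- *Mlkl*-/- replicate 1 was lower still. The log2 fold change against WT was -0.79 (SE 0.197, edgeR adjusted p = 0.0475) and -0.74 without *Casp8*-/- *Tnfr1*-/- replicate 3, where the call was lost (edgeR adjusted p = 0.0561). *Urod* encodes the enzyme that decarboxylates uroporphyrinogen to coproporphyrinogen. It measured 678, 688 and 715 CPM in WT livers, 617 and 612 CPM in *Tnfr1*-/- livers and 446, 570 and 522 CPM in *Casp8*-/- *Mlkl*-/- livers. In *Casp8*-/- *Tnfr1*-/- livers it measured 428, 459 and 472 CPM, and here the liver that stood apart was close to the other two. For *Urod* the log2 fold change against WT was -0.61 (SE 0.141, edgeR adjusted p = 0.0343) and -0.64 without replicate 3 (edgeR adjusted p = 0.00992). These 3 calls were close to the threshold: of 11 fits that each left out 1 liver, *Alad* was called in 4, without *Casp8*-/- *Mlkl*-/- replicate 1 or any 1 *Casp8*-/- *Tnfr1*-/- liver. *Urod* was called in 3, without *Casp8*-/- *Mlkl*-/- replicate 1 or 2 or *Casp8*-/- *Tnfr1*-/- replicate 3, and *Uros* in 1, without *Casp8*-/- *Mlkl*-/- replicate 1. In the fits that lost a call the edgeR adjusted p went up to 0.173. The log2 fold changes stayed between -0.93 and -0.57 in all of them.

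The enzymes of the last steps, which act in mitochondria, split by liver. *Cpox* encodes coproporphyrinogen oxidase. It measured 1460, 1662 and 1625 CPM in WT livers, 1504 and 1521 CPM in *Tnfr1*-/- livers, 1228, 1542 and 1248 CPM in *Casp8*-/- *Mlkl*-/- livers and 1076, 1202 and 1049 CPM in *Casp8*-/- *Tnfr1*-/- livers. All *Casp8*-/- *Tnfr1*-/- livers lay below all 8 others. Nevertheless, its log2 fold change against WT of -0.51 (SE 0.165, edgeR adjusted p = 0.0981) did not pass the threshold, and it was -0.47 without replicate 3 (edgeR adjusted p = 0.0672). The next 2 genes had their highest level in replicate 3.

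*Ppox* encodes protoporphyrinogen oxidase. WT livers measured 420, 380 and 431 CPM, *Tnfr1*-/- livers 403 and 403 CPM, *Casp8*-/- *Mlkl*-/- livers 269, 349 and 341 CPM, and *Casp8*-/- *Tnfr1*-/- livers 272, 282 and 744 CPM. Its log2 fold change against WT was 0.07 (SE 0.344, edgeR adjusted p = 0.903) with all livers and -0.56 without replicate 3, which passed the test (edgeR adjusted p = 0.0238). *Fech* encodes ferrochelatase, which inserts the iron. It measured 1474, 1482 and 1552 CPM in WT livers, 1534 and 1373 CPM in *Tnfr1*-/- livers, 1235, 1514 and 1217 CPM in *Casp8*-/- *Mlkl*-/- livers and 1151, 1037 and 2122 CPM in *Casp8*-/- *Tnfr1*-/- livers. Against WT its log2 fold change was -0.06 (SE 0.263, edgeR adjusted p = 0.889) and -0.45 without replicate 3 (edgeR adjusted p = 0.0667). The excess in replicate 3 was not alike along the pathway. Relative to the median of the other 10 livers, it held 2.94 times the *Alas2*, 2.04 times the *Ppox* and 1.49 times the *Fech*, but 0.495 times the *Alad*, 0.646 times the *Uros*, 0.708 times the *Cpox* and 0.799 times the *Urod*. *Fech* thus stood at 0.260 of the *Alas2* level per kb in this liver and at 0.457 to 0.610 in the others.

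*Hmox1*, the stress-inducible heme oxygenase that opens the heme ring and frees its iron, was not shown to differ between genotypes. It measured 332, 305 and 249 CPM in WT livers, 309 and 284 CPM in *Tnfr1*-/- livers and 333, 289 and 318 CPM in *Casp8*-/- *Mlkl*-/- livers. In *Casp8*-/- *Tnfr1*-/- livers it measured 293, 293 and 676 CPM. The first 2 of these fall within the WT range, and replicate 3 had 2.03 times the level of the highest other liver. Against WT the log2 fold change was 0.51 (SE 0.301, 95% interval -0.16 to 1.18, edgeR adjusted p = 0.313) with all livers and -0.01 (edgeR adjusted p = 0.987) without replicate 3.

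**Figure D3:**
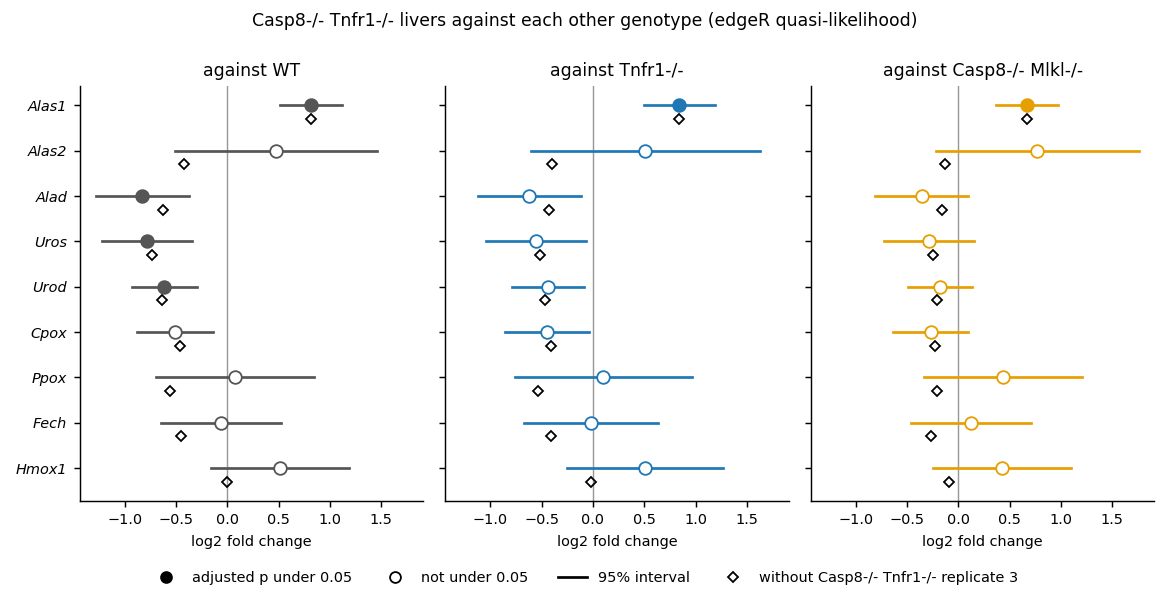
Log2 fold change of each gene in *Casp8*-/- *Tnfr1*-/- livers against WT, *Tnfr1*-/- and *Casp8*-/- *Mlkl*-/- livers. Circles are estimates with 95% intervals, filled where the edgeR adjusted p was under 0.05, and diamonds are estimates without replicate 3. *Alas1* alone is filled in all 3 panels, and *Alas2*, *Ppox*, *Fech* and *Hmox1* shift most when replicate 3 is left out.

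Counted together, 1 of the 9 genes was called higher and 3 were called lower in *Casp8*-/- *Tnfr1*-/- than in WT livers. Of all 17243 genes tested, 5.8% were called in this comparison, 5.1% higher and 0.702% lower. DESeq2 called 13.7% of all genes and limma-voom 4.68%. These shares are the background for the gene lists given below in this comparison. Among all genes tested, an edgeR unadjusted p of 0.0111 (*Cpox*) ranked 1946 and 0.122 (*Hmox1*) ranked 6714. The share of all genes at unadjusted p under 0.05 is not given here, so list counts at that level are not read as a result. The median log2 fold change of the 8 synthesis enzymes was -0.29, against -0.0015 for all genes tested. All *Casp8*-/- *Tnfr1*-/- livers lay above all WT livers for 1 of the 9 genes and for 19.5% of all genes, and below them for 4 of the 9 and for 18.9% of all. Without replicate 3 there were again 1 higher and 3 lower calls, with *Ppox* in place of *Uros*, at a background of 9.83%, and 1 of the 9 log2 fold changes was positive. When *Casp8*-/- *Mlkl*-/- replicate 1 was left out as well, an alternative chosen after the values were seen, 8 of the 9 genes were called, all but *Hmox1*, where 31.3% of all genes were. Against *Tnfr1*-/- livers, *Alas1* was the 1 gene called, where 2.17% of all genes were called, 2.05% higher and 0.122% lower. Without overlap, 1 of the 9 genes lay above, as did 20.5% of all, and 4 of the 9 lay below, as did 20.6% of all. Against *Casp8*-/- *Mlkl*-/- livers it was again the 1 gene called, where 1.65% of all genes were called, 1.54% higher and 0.116% lower. Here 1 of the 9 genes lay above without overlap (9.61% of all) and 1 below (6.15% of all). Without *Casp8*-/- *Mlkl*-/- replicate 1, *Uros* was called lower as well, with log2 fold changes of -0.55 against *Tnfr1*-/- (edgeR adjusted p = 0.0217) and -0.51 against *Casp8*-/- *Mlkl*-/- livers (edgeR adjusted p = 0.0381), where 4.38% and 3.3% of all genes were called. In a single test over the 4 genotypes, *Alas1* was the 1 gene past the threshold (edgeR adjusted p = 0.0166), as were 3.6% of all genes. The lower enzymes were not past it there, with edgeR adjusted p of 0.115 for *Urod*, 0.172 for *Alad* and 0.180 for *Uros*.

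Among the other genotypes, 0 of the 9 genes were called by edgeR. Between *Casp8*-/- *Mlkl*-/- and WT livers, where 0.0058% of all genes were called, 3 of the 9 genes and 5.63% of all genes had an unadjusted p under 0.05: *Urod* with a log2 fold change of -0.44 (SE 0.141), *Uros* with -0.50 (SE 0.197) and *Alad* with -0.47 (SE 0.203). Their edgeR adjusted p was 0.875 each. DESeq2 called *Urod* in this comparison (and 0.522% of all genes), limma-voom called 0 of the 9, and limma-voom with quality weights called 4 (and 6.04% of all). All 3 *Casp8*-/- *Mlkl*-/- livers lay below all WT livers for 5 of the 9 genes, the 3 just named with *Alas2* and *Ppox*, and for 11.1% of all genes. Replicate 1 had the lowest *Alad*, *Uros*, *Urod*, *Cpox* and *Ppox* of this genotype. The same liver had the highest sum of hepatocyte markers, 256309 CPM, and *Alb*, the albumin gene, at 124635 CPM against at most 47186 in the other 10 livers; the part of this in its heme gene levels was not tested. Without it the log2 fold changes were -0.34, -0.27 and -0.36 for *Urod*, *Uros* and *Alad*. Between *Tnfr1*-/- and WT livers 0% of all genes were called, 0 of the 9 and 1.08% of all had an unadjusted p under 0.05, and DESeq2 and both forms of limma-voom called 0 of the 9. Quality weights called 1.57% of all genes here, and an edgeR fit of these 2 genotypes alone called 1.6%. The log2 fold changes of the 9 ran from -0.23 for *Uros* to 0.01 for *Hmox1*, and *Alad*, *Uros* and *Urod* lay below WT without overlap, 3 of the 9 genes against 18.4% of all. Between *Casp8*-/- *Mlkl*-/- and *Tnfr1*-/- livers, where 0.0058% of all genes were called, 0 of the 9 and 2.01% of all had an unadjusted p under 0.05, and the same tools called 0 of the 9, while DESeq2 called 0.261% of all genes and quality weights 3.0%. Here 4 of the 9 genes, *Alas2*, *Alad*, *Urod* and *Ppox*, lay lower in *Casp8*-/- *Mlkl*-/- livers without overlap, as did 9.03% of all.

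Erythroid markers, whose cells hold most of the pathway, had a lower mean log2 CPM in all livers of both double mutants. The mean log2 CPM of 17 erythroid markers was 9.69 to 9.70 in WT, 9.62 to 9.74 in *Tnfr1*-/-, 9.18 to 9.56 in *Casp8*-/- *Mlkl*-/- and 9.09 to 9.27 in *Casp8*-/- *Tnfr1*-/- livers. When summed, these markers measured 22021.5 CPM in *Casp8*-/- *Tnfr1*-/- replicate 3, above the 20875 to 21383 CPM of WT livers. Replicates 1 and 2 lay below WT, at 16116 and 14311 CPM. Against WT, 2 of the 17 were called lower in *Casp8*-/- *Tnfr1*-/- livers, *Rhd* (log2 fold change -0.73, edgeR adjusted p = 0.0169) and *Trim10* (-0.78, edgeR adjusted p = 0.0431), and their median was -0.34. Without *Casp8*-/- *Tnfr1*-/- replicate 3, 6 of the 17 were called lower, where 9.83% of all genes were called in either direction. *Slc4a1*, the gene of the red cell anion exchanger, had -0.24 (edgeR adjusted p = 0.512) and did not pass the test. The part of these markers in the levels of the heme genes was not tested. Subtracting the marker mean from each liver's log2 CPM left *Urod* at -0.38 ± 0.125 (SD, n = 3) in *Casp8*-/- *Tnfr1*-/- and -0.26 ± 0.0422 in WT livers, and *Cpox* at 0.91 ± 0.201 and 0.93 ± 0.0998. *Uros* stood at -2.11 ± 0.146 and -1.82 ± 0.0292, with all 3 livers still below the WT livers. The *Tnfr1*-/- livers (-2.07 and -1.99) and *Casp8*-/- *Mlkl*-/- livers (-2.37, -1.90 and -1.91) were below the WT livers too. *Casp8*-/- *Tnfr1*-/- livers overlapped both of these genotypes. *Alas1* stood at -2.85 ± 0.200 in *Casp8*-/- *Tnfr1*-/- against -4.16 ± 0.125 in WT livers, with all 3 *Casp8*-/- *Tnfr1*-/- livers above the other 8. No test was made on these relative levels. Relative to 7 hemoglobin genes the picture changed in replicate 3, where *Alas1* fell below the WT livers, while it remained above them in replicates 1 and 2.

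**Figure D4:**
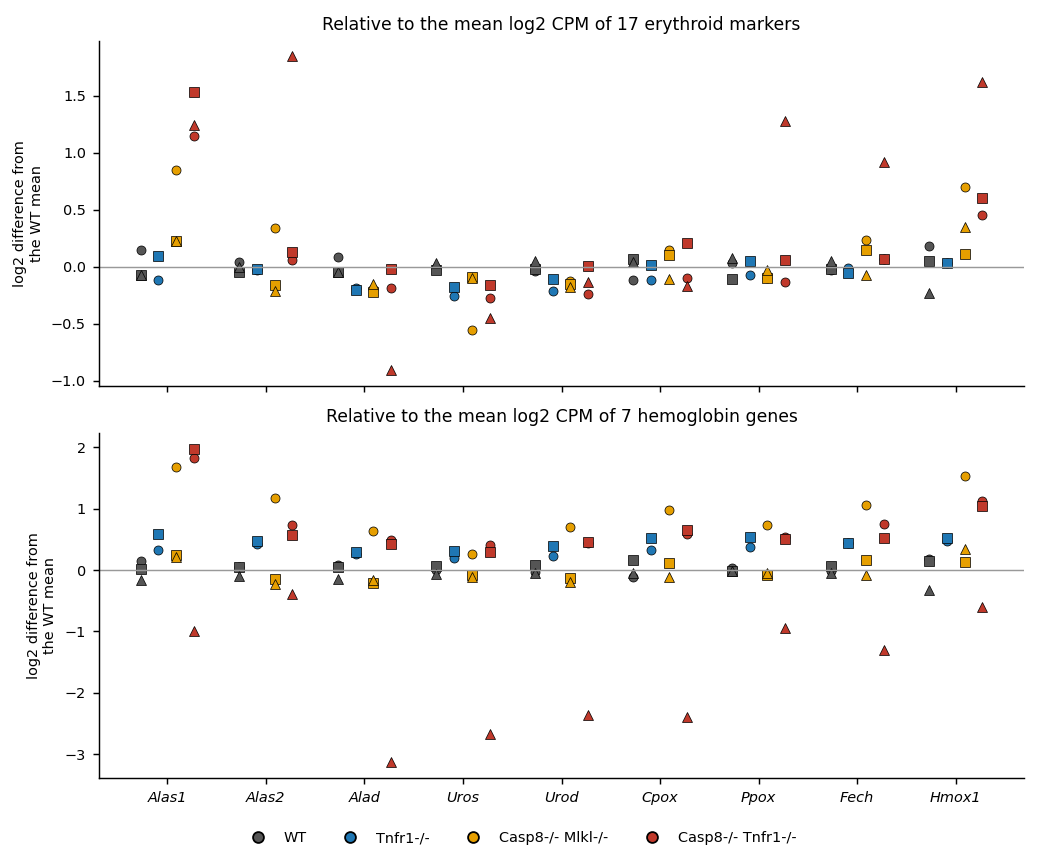
Log2 level of each gene minus the mean log2 CPM of 17 erythroid markers (top) or 7 hemoglobin genes (bottom), shown as the difference from the WT mean, with a point per liver and circles, squares and triangles for replicates 1, 2 and 3. *Alas1* lies above WT in all 3 *Casp8*-/- *Tnfr1*-/- livers in the top panel, and replicate 3 (red triangle) is low for all 9 genes in the bottom panel.

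Of the genes that bring glycine and iron to the pathway, 1 passed the test. Of 25 genes of heme and iron supply, the comparison of *Casp8*-/- *Tnfr1*-/- with WT livers called 1 lower and 0 higher (10 had an unadjusted p under 0.05), 6 had a positive log2 fold change, and the median was -0.30. Positive values were as few in the comparisons of *Tnfr1*-/- and *Casp8*-/- *Mlkl*-/- with WT livers, 6 and 7 of the 25, with medians of -0.13 and -0.23 and 0 called. The gene called was *Slc25a38*, a mitochondrial carrier that brings in glycine for ALA synthesis, with a log2 fold change of -0.69 (SE 0.156, edgeR adjusted p = 0.0324). It measured 169 to 173 CPM in WT and 92.0 to 120 CPM in *Casp8*-/- *Tnfr1*-/- livers, with no overlap. Without replicate 3, 10 of the 25 were called lower and 0 higher, while the share called over all genes was 9.83%. Of 20 genes of heme breakdown, transport and iron storage, 1 was called higher and 0 lower. It was *Cp*, the gene of the plasma ferroxidase ceruloplasmin, at 1036 to 1219 CPM against 49.5 to 117 in WT livers (log2 fold change 3.79, SE 0.912, edgeR adjusted p = 0.0408). *Casp8*-/- *Mlkl*-/- livers ranged from 64.6 to 1005 CPM for this gene, so their highest liver came close to these. Without replicate 3 of *Casp8*-/- *Tnfr1*-/-, 1 of the 20 was called higher and 2 lower, at the same share of 9.83% over all genes.

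Regulators of the ALAS genes were not called by edgeR with all livers. Of 19 genes for regulators of ALAS and of erythroid heme synthesis, edgeR and limma-voom called 0 against WT. An unadjusted edgeR p under 0.05, given here without a share of all genes, was found for 6. DESeq2 called 5 lower, where it called 13.7% of all genes. The median log2 fold change of the list was -0.35, with 5 of 19 positive. The erythroid transcription factor *Gata1* measured 285 to 296 CPM in WT and 96.5 to 188 CPM in *Casp8*-/- *Tnfr1*-/- livers, with a log2 fold change of -0.89 (SE 0.264, edgeR adjusted p = 0.0796). *Klf1* measured 305 to 332 and 81.0 to 182 CPM, with -1.11 (SE 0.324, edgeR adjusted p = 0.0754). *Casp8*-/- *Tnfr1*-/- and WT livers did not overlap for either, though neither passed the test. Both were chosen for mention here after their values were seen. The 2 with the highest WT levels, *Tal1* and *Eif2ak1*, the gene of the heme-regulated kinase, had -0.91 (edgeR adjusted p = 0.128) and 0.15 (edgeR adjusted p = 0.768). Without *Casp8*-/- *Tnfr1*-/- replicate 3, edgeR called 1 of the 19 lower, where 9.83% of all genes were called. When *Casp8*-/- *Mlkl*-/- replicate 1 was left out as well, edgeR called 12 lower, where 31.3% of all genes were called. Limma-voom with quality weights called 11 lower, where 30.6% of all genes were called.

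Of 18 genes of the NRF2 and BACH1 pathway, which includes the regulators of *Hmox1* and other antioxidant genes, 3 were called higher and 0 lower against WT. *Slc7a11*, the cystine transporter, rose by 2.76 on the log2 scale (SE 0.404, edgeR adjusted p = 0.00473) from 0.755 to 1.46 CPM in WT to 5.41 to 7.99 CPM in *Casp8*-/- *Tnfr1*-/- livers. *G6pdx* and *Gsr*, whose enzymes supply NADPH and reduced glutathione, rose by 0.57 (SE 0.131, edgeR adjusted p = 0.0332) and 0.62 (SE 0.144, edgeR adjusted p = 0.0349). The comparison with *Casp8*-/- *Mlkl*-/- livers called all 3 too, at 2.64, 0.74 and 0.71 on the log2 scale. *Hmox1* itself, a known target of this pathway, was not among the genes called, as given above, and the median of the 18 was 0.25. Without *Casp8*-/- *Tnfr1*-/- replicate 3, 3 of the 18 were called higher and 2 lower, where 9.83% of all genes were called.

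Some markers of other cell types differed between the same livers as *Alas1*. Of 11 neutrophil markers, 5 were called higher and 0 lower against WT, and their summed level was 5354 to 14544 CPM in *Casp8*-/- *Tnfr1*-/-, 1159 to 1681 in WT, 1388 to 1421 in *Tnfr1*-/- and 1347 to 3443 CPM in *Casp8*-/- *Mlkl*-/- livers. Those with the smallest p were *S100a8* (log2 fold change 3.31, edgeR adjusted p = 0.0130), *S100a9* (3.53, edgeR adjusted p = 0.0182), *Cebpe* (1.72, edgeR adjusted p = 0.0196) and *Ltf* (3.27, edgeR adjusted p = 0.0260). Without *Casp8*-/- *Tnfr1*-/- replicate 3, 9 of the 11 were called higher, where 9.83% of all genes were called in either direction. The mean log2 CPM of the neutrophil list was 6.96 to 7.90 in *Casp8*-/- *Tnfr1*-/- and 5.56 to 6.13 in WT livers. On this measure replicate 3 was the lowest of its genotype at 6.96, below *Casp8*-/- *Mlkl*-/- replicate 1 at 6.98. Of 15 macrophage markers, 3 were called higher, the scavenger receptor gene *Msr1* (2.18, edgeR adjusted p = 0.000773), *Cd68* (0.90, edgeR adjusted p = 0.0293) and *Lyz2* (1.55, edgeR adjusted p = 0.0403), and 2 lower, *Clec4f* (-4.23, edgeR adjusted p = 0.0436) and *Marco* (-1.51, edgeR adjusted p = 0.0495). The list was summed at 1203 to 1276 CPM in *Casp8*-/- *Tnfr1*-/- and 773 to 1044 CPM in WT livers, and without *Casp8*-/- *Tnfr1*-/- replicate 3, 2 were called higher and 0 lower. The mean log2 CPM of the list went the other way, at 3.96 to 4.80 in *Casp8*-/- *Tnfr1*-/- and 5.0 to 5.34 in WT livers, with 5 of the 15 log2 fold changes positive and a median of -0.23. In the fit with all livers *Adgre1* had -0.78 (edgeR adjusted p = 0.221) and *Csf1r* -0.18 (edgeR adjusted p = 0.745). Of 10 endothelial markers 1 was called higher, *Pecam1* (1.30, edgeR adjusted p = 0.0449), and the list was summed at 455 to 826 CPM in *Casp8*-/- *Tnfr1*-/- and 439 to 495 CPM in WT livers. Of 17 hepatocyte markers edgeR called 0 (5 at unadjusted p under 0.05, DESeq2 1, limma-voom 0), with *Alb* at 0.04 (edgeR adjusted p = 0.972) and *Afp* at 0.14 (edgeR adjusted p = 0.838). Of 12 striated muscle genes, summed at 1670 CPM in replicate 3 and at most 42.9 CPM elsewhere, edgeR called 0 (12 at unadjusted p under 0.05, DESeq2 3, limma-voom 0), with *Acta1* at 6.15 (edgeR adjusted p = 0.0699) and *Mylpf* at 2.66 (edgeR adjusted p = 0.129). Of 5 sex chromosome genes edgeR called 0 (1 at unadjusted p under 0.05, DESeq2 0, limma-voom 0), with *Xist* at 12.18 (edgeR adjusted p = 0.0675) and *Ddx3y* at -0.48 (edgeR adjusted p = 0.795). These fold changes combine replicate 3 with the other livers of its genotype. The mean log2 CPM of the 5 genes was -0.51 in replicate 3, despite its *Xist*, and 3.65 to 4.37 in the other livers. The part of sex in the heme gene levels of replicate 3 was not tested. Several of the 7 hemoglobin genes are near-identical copies, and only uniquely mapped reads were counted, so reads that fit several copies are left out. Of these 7 genes, edgeR called 0 (1 at unadjusted p under 0.05, DESeq2 0, limma-voom 0), with *Hbb-bs* at 0.72 (edgeR adjusted p = 0.452) and *Hbb-bt* at 0.16 (edgeR adjusted p = 0.832). Without replicate 3 it called 3 lower, where 9.83% of all genes were called. Limma-voom with quality weights called 5 hepatocyte markers higher and 5 lower, 6 striated muscle genes higher and 7 hemoglobin genes lower. EdgeR without replicate 3 and *Casp8*-/- *Mlkl*-/- replicate 1 called 5 higher and 7 lower, 3 higher and 7 lower in that order. These 2 fits called 30.6% and 31.3% of all genes. The part of these cell types and genes in the levels of *Alas1* and of the other heme genes was not tested.

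Finally, the genes with a profile most like that of 3 members were sought, as the root mean square (RMS) difference of log2 CPM over the 11 livers after each gene was centred on its own mean. *Alas1*, whose own RMS spread was 0.363, was nearest to *Sh3bgrl3* (RMS 0.0533), *Rac2* (0.0693) and *Fam107b* (0.0767), while the median over all genes was 0.542. *Alas2*, with a spread of 0.497, was nearest to *Tspo2* (0.0601), *Fhdc1* (0.0789) and *Ip6k1* (0.0904). *Hmox1*, with a spread of 0.356, was nearest to *Fam114a2* (0.0729), *Dusp16* (0.0816) and *Spata13* (0.0860). Among the 9 genes, *Urod* and *Cpox* were most alike (RMS 0.108), followed by *Urod* and *Uros* (0.152), *Ppox* and *Fech* (0.180) and *Alad* and *Uros* (0.193). *Alas1* had no near neighbour among them, with 0.364 to *Hmox1*. These values describe 11 livers that share genotypes and the liver that stood apart, and no test was made.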

How the data were processed

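RNA sequencing data of 11 whole fetal livers were used, as raw count tables of 52636 genes, 1 per liver. Per the labels and the methods of the study, the authors aligned the reads to the mouse genome (GRCm38/mm10) with GSNAP and counted uniquely mapped reads over exons. The deposited count column was analysed. The deposited RPKM values made by the authors were not used, and the deposited width column gave the exon length for CPM per kb. No column of per-sample values was left without a liver. Groups were taken from the labels, which do not say whether livers of a genotype came from separate litters, so p-values measure only the spread between these livers. The lowest chi-square per degree of freedom between any 2 livers was 6.45, so none was a copy of another.

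Genes were tested with edgeR 4.0.16 in R 4.3.3 (quasi-likelihood test, TMM normalisation, filterByExpr with a minimum count of 10), in a single fit of all 4 genotypes with 6 pairwise comparisons and a test over all genotypes, and p-values were adjusted by Benjamini-Hochberg over 17243 genes with a threshold of 0.05. A prior count of 2 entered log2 CPM. CPM were computed with TMM library sizes. DESeq2 1.42.0, limma 3.58.1 (voom, with and without quality weights), other scalings and filters, 2-genotype fits, a replicate block and leaving out each liver were the alternatives. A comparison left with 1 *Tnfr1*-/- liver assumes that it varies like the others. Gene positions were from GENCODE M21 and promoters from RefSeq (GRCm38.p6). Symbols were matched for 52403 of the 52636 identifiers.

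The genes and lists were chosen with earlier results of these data known. From each list, up to 4 called genes with the smallest p against WT were named, or the 2 with the highest level where none was called. *Slc4a1*, *Alb*, *Afp*, *Adgre1*, *Csf1r*, *Acta1* and *Xist* were always named, and 1 other marker is not reported here. Figures were drawn with matplotlib 3.10.9 in Python 3.11.15.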

Additional observations from a re-analysis of the deposited data

How the results depend on the processing

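The number of the 9 genes called between *Casp8*-/- *Tnfr1*-/- and WT livers, 4, was 8 with limma-voom quality weights, 1 without a filter on low counts, 2 when only these 2 genotypes were fitted, 1 with the replicate block, 8 when both livers with a low TMM factor were left out (an alternative added after the values were seen) and 0 to 4 when 1 liver was left out, with 0 without WT replicate 2 or WT replicate 3. Against *Tnfr1*-/- livers the 1 called became 3 with DESeq2, 8 with quality weights, 0 without a filter, 0 with the 2 genotypes alone, 0 with the block, 8 without both livers and 0 to 2 without 1 liver. Against *Casp8*-/- *Mlkl*-/- livers the 1 became 5 with quality weights, 0 without a filter, 0 with the 2 genotypes alone, 0 with the block, 5 without both livers and 0 to 2 without 1 liver. Between *Casp8*-/- *Mlkl*-/- and WT livers the 0 became 1 with DESeq2, 4 with quality weights and 5 without both livers, and between *Casp8*-/- *Mlkl*-/- and *Tnfr1*-/- livers 1 without both. Over all genotypes the 1 became 5 with DESeq2, 8 with quality weights, 0 with the block, 8 without both livers and 0 to 3 without 1 liver. Of all genes, 10.1% were called over all genotypes with DESeq2, 31.8% with quality weights, 1.62% with the block and 30.8% without both livers. Without a filter, *Casp8*-/- *Tnfr1*-/- livers had 3.8%, 1.57% and 1.43% of all genes called against WT, *Tnfr1*-/- and *Casp8*-/- *Mlkl*-/- livers. The count between *Tnfr1*-/- and WT livers stayed at 0 in all 21 alternatives run for it.

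Over all genes, the 1000 called between *Casp8*-/- *Tnfr1*-/- and WT livers were 2364 with DESeq2, 5279 with quality weights, 486 with the 2 genotypes alone, 572 with the block, 5314 without both livers and 281 to 1674 without 1 liver. In the same order, the 374 against *Tnfr1*-/- livers were 1269, 4325, 56, 189 and 3931, and the 285 against *Casp8*-/- *Mlkl*-/- livers were 941, 2709, 11, 144 and 3067. The 1 between *Casp8*-/- *Mlkl*-/- and WT livers was 90 with DESeq2, 1042 with quality weights and 1086 without both livers. The 1 between *Casp8*-/- *Mlkl*-/- and *Tnfr1*-/- livers was 45, 517 and 592 in that order, and the 0 between *Tnfr1*-/- and WT livers was 271 with quality weights, 259 with the 2 genotypes alone and 115 without both. *Alas2* and *Ppox* were not called with all livers, and some alternatives called them in the direction opposite to their sign there. For *Alas2* the log2 fold change against WT became -0.41 with quality weights and -0.42 without both livers, and -0.37 and -0.38 in the comparison with *Tnfr1*-/-. For *Ppox* it became -0.54 with quality weights, -0.55 without both livers and -0.56 to 0.33 when 1 liver was left out (lowest without *Casp8*-/- *Tnfr1*-/- replicate 3) against WT. With quality weights and without both livers it became -0.53 and -0.53 in the comparison with *Tnfr1*-/-, then -0.29 and -0.31 in that with *Casp8*-/- *Mlkl*-/- livers. The cause was not tested, apart from the single high liver given for both genes. *Alas1* kept its call against WT in 10 of 10 alternatives other than leaving out 1 liver. No pairing of the livers by replicate number was seen (same-number r from -0.30 to 0.27, other numbers from -0.28 to 0.31). These r are of deviations from genotype means, which are tied to each other within a genotype. They cannot show whether livers shared a litter or batch. All 9 genes had high counts, at least 1053 in each liver, so depth limits them little.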
